A study of Mus musculus with 8 samples.

Results

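The loci described here were the annotated antisense RNA genes that HL1 nuclei transcribed to a countable level. HL1 is a mouse atrial cardiomyocyte line, and nuclei from 3 cultures were separated with a urea and detergent buffer into RNA held in the chromatin pellet and RNA released to the nucleoplasm. Short-read libraries covered both fractions (3 each), and 2 long-read libraries covered chromatin only. All groups shared one cell line with no genetic change and no treatment contrast; the growth medium was Claycomb medium with serum, norepinephrine, ascorbic acid and glutamine for every culture. A locus was taken when a gene assembled from the short reads shared more of its joint span with a GENCODE M21 gene of type antisense, on the same strand of an autosome, than with any other gene and at least 0.5 of it. The members were thus chosen from measured values in one respect, since a locus had to be assembled and had to be above 0 in at least 1 of the 6 short-read libraries. GENCODE M21 lists 2913 autosomal antisense genes, 565 assembled loci took the name of one, and 437 of these were above 0. Kcnq1ot1, Airn and Nespas were left out by rule (2 of them were present), as were 5 loci over a same-strand miRNA gene, which left 430 members among 20637 assembled loci and 65265 genes in the table. Of the members, 84 passed the filter through chromatin alone and 7 through nucleoplasm alone, so counts over all 430 describe the loci and lend no support beyond that.

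An antisense RNA is read from the strand opposite another gene, here nearly always a protein-coding one. It can lie wholly inside the coding gene, start inside it and run out past its 5′ end (head-to-head), or start beyond its 3′ end (tail-to-tail). Head-to-head sets no limit here on the distance between the starts, so it does not mean a shared promoter. Some such RNAs act where they are made, on the gene they overlap, and an RNA that stays with chromatin can remain close to its site of transcription, whereas mature mRNA leaves for the cytoplasm. RNA far more abundant in the chromatin pellet than in the nucleoplasm is called cheRNA, for chromatin-enriched RNA.

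Starts of 6 loci that the results below turn on are shown as the 250 bases before and 50 bases after the RefSeq start (GRCm38.p6), 5′ to 3′ on the strand of the antisense RNA, with each CG dinucleotide in capitals. Ppifos and Gm16252 had large rises in chromatin, Gm15543 and Rab26os had large falls, and Gata5os and Mhrt lie opposite a cardiac transcription factor gene and a myosin gene. Windows that overlap the UTR of a coding gene are not printed.
Ppifos (chr14:25701233-25701532, minus strand): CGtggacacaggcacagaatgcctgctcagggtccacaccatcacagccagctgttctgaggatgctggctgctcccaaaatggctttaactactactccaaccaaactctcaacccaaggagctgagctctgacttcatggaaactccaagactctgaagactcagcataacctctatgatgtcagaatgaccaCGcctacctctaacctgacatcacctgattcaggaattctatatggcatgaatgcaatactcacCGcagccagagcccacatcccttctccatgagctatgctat
Gm16252 (chr9:103471799-103472098, plus strand): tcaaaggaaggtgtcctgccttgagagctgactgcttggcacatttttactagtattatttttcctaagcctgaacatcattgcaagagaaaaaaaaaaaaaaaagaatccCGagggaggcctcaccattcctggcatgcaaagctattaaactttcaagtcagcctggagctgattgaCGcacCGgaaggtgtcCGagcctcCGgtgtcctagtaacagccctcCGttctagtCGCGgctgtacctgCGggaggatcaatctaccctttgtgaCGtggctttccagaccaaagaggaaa
Gm15543 (chr6:145182025-145182324, plus strand): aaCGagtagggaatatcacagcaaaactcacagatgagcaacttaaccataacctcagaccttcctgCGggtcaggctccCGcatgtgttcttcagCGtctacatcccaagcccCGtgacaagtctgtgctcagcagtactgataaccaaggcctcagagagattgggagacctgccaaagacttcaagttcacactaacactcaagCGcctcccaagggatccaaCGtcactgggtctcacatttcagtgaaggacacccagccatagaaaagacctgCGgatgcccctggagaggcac
Rab26os (chr17:24528001-24528300, plus strand): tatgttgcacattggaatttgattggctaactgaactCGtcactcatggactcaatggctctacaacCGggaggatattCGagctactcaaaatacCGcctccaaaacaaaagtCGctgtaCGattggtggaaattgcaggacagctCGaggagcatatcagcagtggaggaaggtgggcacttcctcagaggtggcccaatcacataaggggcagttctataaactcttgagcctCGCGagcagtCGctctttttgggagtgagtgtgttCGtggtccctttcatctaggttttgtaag
Gata5os (chr2:180332607-180332906, plus strand): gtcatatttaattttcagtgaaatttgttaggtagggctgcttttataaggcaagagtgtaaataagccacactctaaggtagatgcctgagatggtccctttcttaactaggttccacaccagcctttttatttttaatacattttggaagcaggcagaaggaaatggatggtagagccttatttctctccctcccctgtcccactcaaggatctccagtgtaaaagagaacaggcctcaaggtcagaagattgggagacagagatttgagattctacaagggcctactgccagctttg
Mhrt (chr14:54968537-54968836, plus strand): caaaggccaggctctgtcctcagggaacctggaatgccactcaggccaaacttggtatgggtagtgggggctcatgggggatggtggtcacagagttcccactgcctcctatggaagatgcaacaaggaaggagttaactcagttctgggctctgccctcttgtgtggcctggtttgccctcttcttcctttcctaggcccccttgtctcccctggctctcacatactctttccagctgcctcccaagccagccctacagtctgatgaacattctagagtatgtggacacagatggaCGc
The windows of Ppifos and Gm16252 held 3 and 10 CG dinucleotides, those of Gm15543 and Rab26os held 8 and 11, and those of Gata5os and Mhrt held 0 and 1. Rab26os alone of the 6 had TATAAA within 50 bases upstream of its start, at position -31.

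The values are gene counts divided by a size factor per library (normalized counts), and reads recovered from them totalled 91657034 to 121773350 per library. Replicates differed by more than sampling noise, and in both fractions the library numbered 3 stood apart in marker genes. Actn2 read 12242, 11247 and 6366 in chromatin and 1762, 1574 and 725 in nucleoplasm (replicates 1, 2 and 3), and 12 of the 13 measured cardiomyocyte markers were lowest in replicate 3 of both fractions, all but Gata4. The fibroblast marker Col3a1 went the other way, at 18906, 21910.4 and 56749 in chromatin and 41666, 41172 and 113109 in nucleoplasm, and 5 of the 8 fibroblast markers were highest in replicate 3 of both fractions. All 13 measured cardiomyocyte markers and all 4 measured smooth muscle markers were at 10 or more in every library (Myh6, Tnnt2 and Tagln had no single row and were not measured), as were 5 of 8 fibroblast and 2 of 7 endothelial markers, with Cdh5 and Vwf at 0 in all 6. The part of this difference between libraries in any result was not tested, and counts without both libraries numbered 3 are given below.

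Chromatin against nucleoplasm asks which antisense RNAs stay in the chromatin pellet, at their template or elsewhere. Of the 430 loci, 154 (35.8%) were higher in chromatin and 22 (5.12%) were lower at an adjusted p under 0.05 in limma, beside 26.9% and 20.9% of all 35830 genes tested. Among the 154, 19 were at 0 in all nucleoplasm libraries and so entered the set through chromatin alone. The thresholds for cheRNA (adjusted p under 0.05, log2 fold change above 2, span above 200 bp) were passed by 88 loci (20.5%), beside 15.4% of all genes. No antisense locus passed the test with a fitted fall of more than 4 fold, which 4.9% of all genes showed. The median log2 fold change was 1.01, with quartiles of 0.18 and 1.91, and the median of all genes was 0.38. In 190 loci every chromatin library lay above every nucleoplasm library (31.5% of all genes did so), and in 35 every chromatin library lay below (23.8% of all genes). Scaling to the ERCC spike-ins moved the split of calls to 196 higher and 2 lower, beside 12460 and 3109 of all 35830 genes. It moved the median of all genes to 0.83. Quantile normalization moved the split to 77 and 52, beside 7252 and 8186 of all genes, and the median of all genes to 0.02. Under quantile normalization the share of antisense loci called higher was thus below that of all genes. Rises made up 87.5%, 99.0% and 59.7% of the antisense calls under size factors, ERCC scaling and quantile normalization. For all genes they made up 56.3%, 80.0% and 47.0%. Relative to all genes, the median of the antisense loci was higher by 0.64, 0.53 and 0.28 under the size factors, ERCC scaling and quantile normalization. Leaving out both libraries numbered 3 gave 140 higher and 24 lower, beside 9893 and 8092 of all genes.

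**Figure D1:**
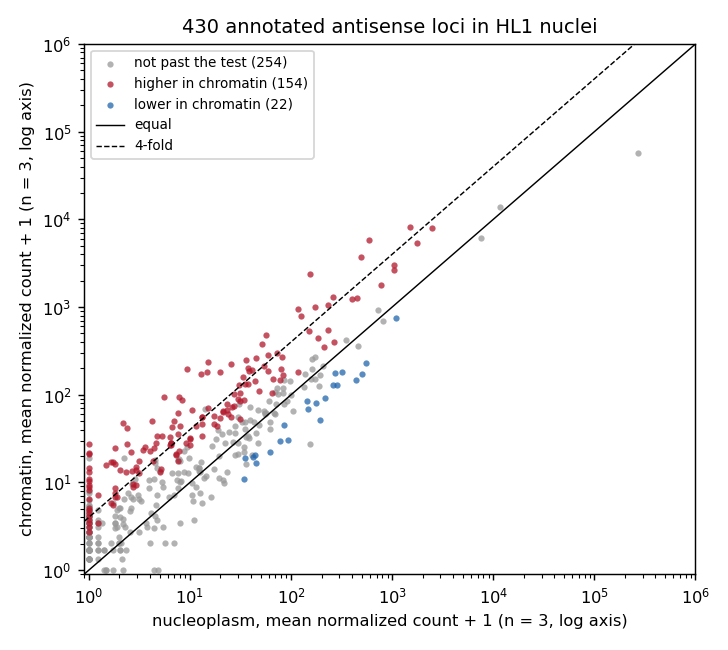
Mean normalized count + 1 of the 430 antisense loci in nucleoplasm (x, n = 3, log axis) and chromatin (y, n = 3, log axis). Points are loci, red for the 154 higher and blue for the 22 lower in chromatin by the size-factor scaling (196 and 2 under ERCC scaling, 77 and 52 under quantile normalization). Most coloured points lie above the line of equal levels, and the column at the left edge holds the 84 loci at 0 in nucleoplasm.

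Most antisense RNAs were scarce, with a median of 12.1 normalized counts over the 6 libraries, and 245 of 430 were above 0 in all 6. Of the 84 at 0 in all nucleoplasm libraries, 31 had a chromatin mean over the floor of 3 reads per library, with bounds of at least 1.05- to at least 9.04-fold higher. The highest bound was that of 4930533K18Rik (picked after its value was seen), at 29.5, 22.01 and 28.1 in chromatin. With such loci at their bound the median log2 fold change was 0.91 over 372 loci, and 58 had no bound. Between 356 and 388 of them were above 0 in a chromatin library and between 286 and 316 in a nucleoplasm library. Calls moved with level among the antisense loci and among all genes. Of 105 loci with a mean under 2 counts, 8 were higher (7.62%) and 0 lower, beside 5.40% of all genes higher. From 2 to 20 counts, 58 of 144 loci were higher (40.3%) and 0 lower, beside 30.6% of all genes higher. Of 74 loci at 100 counts or more, 41 were higher (55.4%) and 13 lower (17.6%), beside 30.7% and 42.5% of all genes. At that highest level the median log2 fold change of the antisense loci was 0.96 and that of all 15736 genes of the level was -0.28. Between 20 and 100 counts the order turned, with 0.68 for the antisense loci and 0.79 for all genes. The 181 loci with a mean of at least 20 held 88 higher (48.6%) and 22 lower (12.2%), beside 31.8% and 34.0% of all genes of that level. All 22 falls were among them, and below 20 counts falls were rare among all genes too (0.268% under 2 counts and 1.74% from 2 to 20). Against the other classes matched by the same rule, 252 lincRNA loci (intergenic noncoding genes) held 126 higher and 23 lower with a median of 1.26, and 10555 protein-coding loci held 2701 higher and 4570 lower with a median of -0.32.

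The largest rises among loci with a mean of at least 20 counts ran opposite genes of unrelated roles. Gm34868 (chr12:76286882-76300303, minus strand, mm10) lies inside Mthfd1, a folate-cycle enzyme, and read 41.7, 58.7 and 40.6 in chromatin and 0, 3.60 and 0 in nucleoplasm. Its nucleoplasm value rests on 3 reads against 136 in chromatin, a ratio of 50.1 with an exact 95% counting interval of 16.8 to 246, and it had a log2 fold change 4.83 ± 0.71 (SE), adjusted p = 0.00194. The adjusted p without both libraries numbered 3 was 0.0510. Ppifos (chr14:25696356-25701282, minus strand), whose start is shown above, runs into the 3′ end of Ppif, which encodes cyclophilin D of the mitochondrial permeability transition pore. It read 33.5, 33.5 and 55.2 in chromatin and 2.02, 0 and 2.17 in nucleoplasm (log2 fold change 4.26 ± 0.59 (SE), adjusted p = 0.00160). All 3 chromatin libraries were thus more than 10 times every nucleoplasm library.

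D830005E20Rik (chr10:33222345-33256357, minus strand) lies inside Trdn, which encodes triadin of the cardiac calcium release complex. The antisense RNA read 222, 172 and 127 in chromatin and 13.1, 10.8 and 11.6 in nucleoplasm (log2 fold change 3.73 ± 0.29 (SE), adjusted p = 0.000139), with no overlap between the fractions. Trdn itself read 3230.2, 3085 and 2629.9 in chromatin and 4376, 3751 and 3580.3 in nucleoplasm, a log2 fold change of -0.39 ± 0.12 (SE), adjusted p = 0.0401 by size factors. Under ERCC scaling the sign of Trdn turned (0.35, adjusted p = 0.165), so no direction is given for it. Gm20275 (chr9:59827124-59941086, minus strand), opposite the end of the unconventional myosin gene Myo9a, was the most abundant of the 10 largest rises. It read 3007, 2635 and 1582 in chromatin and 185, 167 and 110.2 in nucleoplasm (log2 fold change 3.94 ± 0.31 (SE), adjusted p = 0.000145); same-strand processed pseudogenes lie in its span. Gm40117, opposite Cttnbp2nl, read 235, 201 and 277 in chromatin and 11.1, 9.59 and 21.7 in nucleoplasm (log2 fold change 4.05 ± 0.35 (SE), adjusted p = 0.000226).

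The other named rises had the same form, with every chromatin library several times above every nucleoplasm library. Gm28800, inside the annealing helicase gene Zranb3, read 57.9, 45.1 and 177 in chromatin and 2.02, 3.60 and 7.97 in nucleoplasm (log2 fold change 3.97 ± 0.68 (SE), adjusted p = 0.00375), and chromatin replicate 3 was the highest by far. Gm16252, opposite Tmem108, read 46.8, 49.3 and 50.0 in chromatin and 6.06, 3.60 and 0 in nucleoplasm (log2 fold change 3.96 ± 0.77 (SE), adjusted p = 0.00649). Gm15612, inside Podxl2, read 107, 102 and 74.9 in chromatin and 10.1, 5.99 and 4.35 in nucleoplasm (log2 fold change 3.66 ± 0.38 (SE), adjusted p = 0.000471). For 4930542D17Rik, head-to-head with Ccdc54, the fractions were just as far apart, at 189, 197 and 160.3 in chromatin and 15.2, 9.59 and 16.7 in nucleoplasm (log2 fold change 3.66 ± 0.28 (SE), adjusted p = 0.000141). Gm15941 read 232, 201 and 160.3 in chromatin and 12.1, 7.19 and 5.80 in nucleoplasm (log2 fold change 4.45 ± 0.34 (SE), adjusted p = 0.000137), but it overlaps Ncald on the same strand, so reads of the 2 genes may be mixed.

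Antisense RNAs lower in chromatin were fewer and changed less. Rab26os (chr17:24528251-24528744, plus strand), inside the gene of the small GTPase Rab26, read 166, 176 and 176 in chromatin and 492, 563 and 466 in nucleoplasm (log2 fold change -1.55 ± 0.12 (SE), adjusted p = 0.000144), a mean in chromatin of 0.340 times that in nucleoplasm. The snoRNA Snord60 lies in its span on the same strand and may share its reads. 2810001G20Rik, which overlaps no coding gene by span, read 159.6, 148 and 136 in chromatin and 428, 433 and 452 in nucleoplasm (log2 fold change -1.56 ± 0.12 (SE), adjusted p = 0.000126). Replicates of both loci agreed closely and the fractions did not overlap. Gm16062, opposite Cops3 of the COP9 signalosome, read 26.4, 23.1 and 38.5 in chromatin and 90.9, 95.9 and 87.7 in nucleoplasm (log2 fold change -1.64 ± 0.27 (SE), adjusted p = 0.00297), with an annotated rRNA gene in its span. 1700052K11Rik, head-to-head with the kinase gene Tlk2, read 8.13, 9.43 and 12.5 in chromatin and 32.3, 34.8 and 32.6 in nucleoplasm (log2 fold change -1.65 ± 0.32 (SE), adjusted p = 0.00623). Gm15543, inside Casc1, read 64.0, 62.9 and 22.9 in chromatin and 235, 255 and 88.4 in nucleoplasm (log2 fold change -1.92 ± 0.58 (SE), adjusted p = 0.0356). In the last of these the libraries numbered 3 were the lowest of both fractions, chromatin and nucleoplasm ranges came close, and leaving out 1 library gave adjusted p-values of 0.0286 to 0.136, past the threshold only without nucleoplasm replicate 3. Gm15543 passed with the replicate number as a block (adjusted p = 0.000736) and without both libraries numbered 3 (0.00302). Of its 17 alternatives, 8 did not pass. Under ERCC scaling Gm16062, 1700052K11Rik and Gm15543 kept their sign but did not pass, at log2 fold changes of -0.92, -0.96 and -1.20.

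**Figure D2:**
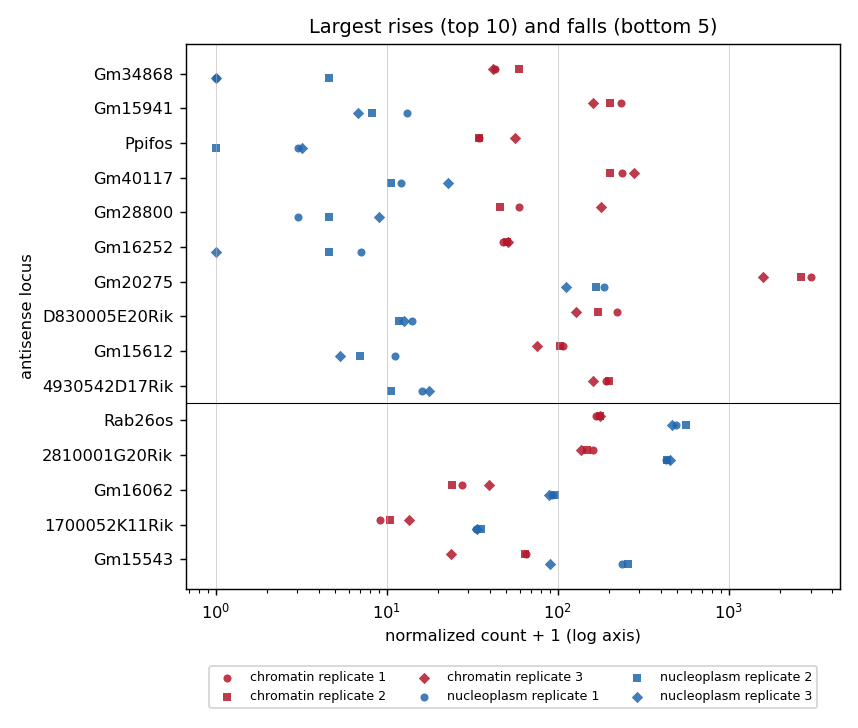
Normalized count + 1 (x, log axis) in each of the 6 short-read libraries for the 10 largest rises (above the line) and the 5 largest falls (below it) among antisense loci with a mean of at least 20. Red marks are chromatin, blue marks nucleoplasm, and the marker shape gives the replicate number. The fractions do not overlap in any of the 15 rows, and the gap is narrowest for Gm15543 and for Gm16062.

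Per kilobase of span, the antisense RNAs at the highest level in chromatin were Snhg9, Gm15564, B930036N10Rik, Tug1 and Gm26944. Snhg9, the host of the snoRNA Snora78, stood first at 4085 normalized counts per kb in chromatin and 1798 in nucleoplasm. Its counts were 1617, 1064 and 2649.7 in chromatin and 814, 616 and 916 in nucleoplasm (log2 fold change 1.10 ± 0.35 (SE), adjusted p = 0.0417), and leaving out 1 library gave adjusted p-values of 0.0248 to 0.151, past the threshold only without chromatin replicate 2. Gm26944, opposite the polyadenylation factor gene Pcf11, read 5588, 4629 and 7182 in chromatin and 557, 512 and 704 in nucleoplasm (log2 fold change 3.28 ± 0.20 (SE), adjusted p = 6.16e-05) and was called under every alternative. B930036N10Rik, head-to-head with the RNA export adaptor gene Alyref2 and overlapping an snRNA gene, read 4953, 4588 and 14369 in chromatin and 2274, 2120.2 and 2966 in nucleoplasm (log2 fold change 1.504 ± 0.46 (SE), adjusted p = 0.0363), and chromatin replicate 3 was above the other 2 combined. Without 1 library its adjusted p lay at 0.0159 to 0.130, past the threshold only without chromatin replicate 3. B930036N10Rik passed with the replicate number as a block (adjusted p = 0.0134) and without both libraries numbered 3 (0.00467). Of its 17 alternatives, 7 did not pass.

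Tug1, a long noncoding RNA that starts beside Morc2a on the opposite strand, had a difference that depended on the setting. It read 13389.6, 13788 and 13826 in chromatin and 11436, 11039.7 and 12658 in nucleoplasm (log2 fold change 0.23 ± 0.09 (SE), adjusted p = 0.0771), and passed without nucleoplasm replicate 3 (0.28, adjusted p = 0.0169). ERCC scaling called it higher in chromatin (0.96, adjusted p = 0.0161), as did DESeq2 (0.22, adjusted p = 0.0180), while quantile normalization turned its sign (-0.14). Gm15564 differed from all of these in its spread, at 40646, 50726 and 78768 in chromatin and 508600, 244468 and 48235 in nucleoplasm (log2 fold change -1.74 ± 0.86 (SE), adjusted p = 0.153). Without nucleoplasm replicate 3 it passed (-2.69, adjusted p = 0.0145). It also passed with DESeq2 (-2.24, adjusted p = 0.00853) and without both libraries numbered 3 (-2.96, adjusted p = 0.0304). Of its 17 alternatives, 14 did not pass. A stretch of 72 bases in its transcript is 98.6% identical to one in Lars2, so its reads are uncertain. It made up most of the antisense total in all 3 nucleoplasm libraries, and without it the antisense loci took 0.0870% to 0.101% of a chromatin library and 0.0396% to 0.0524% of a nucleoplasm library. Transcripts of 26 loci share at least 100 bases at 98% identity or more with another annotated gene, Tug1, B930036N10Rik, Pax6os1 and Zeb2os among them. Genes were told apart by name only, so a small gene annotated within the locus itself counts as another gene.

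Longer antisense loci were more often higher in chromatin, while the classes of arrangement with a coding gene lay close together; neither difference was tested. Of 190 loci inside a coding gene, 67 were higher and 6 lower (median log2 fold change 1.14), of 110 head-to-head loci 43 and 7 (0.93), of 91 tail-to-tail loci 32 and 5 (0.88), and of 14 loci that span a whole coding gene 6 and 0 (1.00). The 25 loci with no coding gene opposite held 6 higher and 4 lower, with a median of -0.12. By span, 30 of 130 loci under 5 kb were higher (23.1%) and 10 lower. The counts were 72 (37.9%) and 10 of 190 between 5 and 20 kb, and 52 (47.3%) and 2 of 110 over 20 kb. Of all genes of any span, 26.9% were higher and 20.9% lower. All genes, lincRNA loci and coding loci were not split by span, so whether the trend is particular to antisense loci was not tested. The medians of these 3 classes were 0.42, 1.16 and 1.37, although their median counts were alike at 11.7, 14.4 and 11.0. Across loci, Spearman's rho between fold change and log10 of the span was 0.300 (430 loci of the same 6 libraries, a description). Exon bases were shared with the coding gene in 260 of 405 loci, with a median overlap of 268 bp. Those loci had a median of 1.00, and the 145 with overlapping spans but no shared exon had 1.14.

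**Figure D3:**
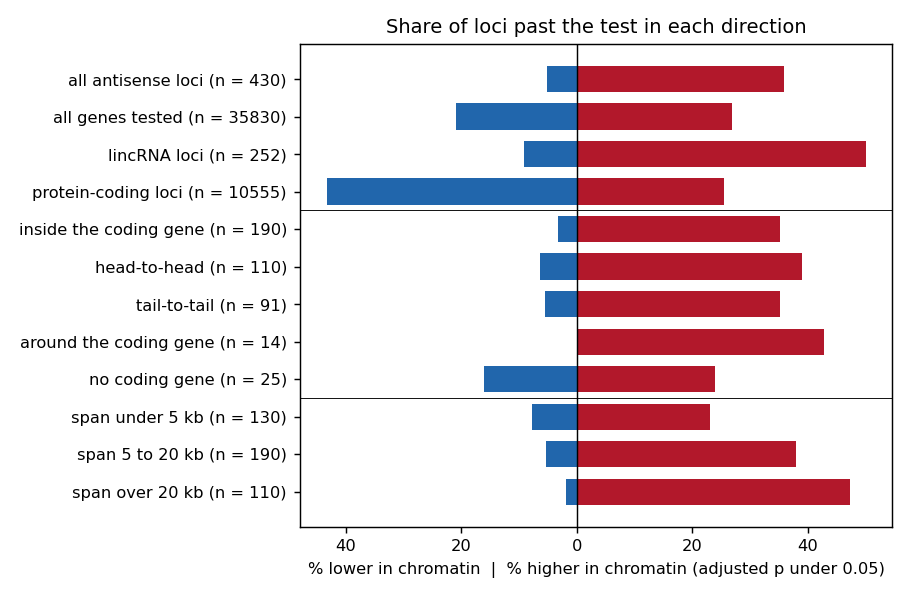
Share of loci past the test (adjusted p under 0.05) in each class, in percent of the class, higher in chromatin to the right in red and lower to the left in blue, by the size-factor scaling. The upper block sets the antisense loci beside all genes, lincRNA and protein-coding loci, the middle block splits them by arrangement with the coding gene, and the lower block by span, where the share of rises goes from 23.1% to 47.3%.

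The coding genes on the opposite strand had calls in both directions by size factors, and the split depended on the scaling. Of 369 distinct coding genes with a locus of their own, 120 (32.5%) were higher in chromatin and 113 (30.6%) lower. The shares were 26.9% and 20.9% of all genes, and 25.6% and 43.3% of the 10555 protein-coding loci. The cheRNA thresholds were passed by 24 of the 369 (6.50%), beside 15.4% of all genes and 5.26% of protein-coding loci. The median log2 fold change of the 369 was -0.05, which turned to 0.66 under ERCC scaling with 177 higher and 26 lower. To compare the strands directly, the ratio of antisense to sense counts in each library was fitted over all 4671 pairs of a locus and the coding locus it faces. Of the 360 pairs of antisense members, the ratio was higher in chromatin in 132 (36.7%, beside 33.9% of all pairs) and lower in 33 (9.17%, beside 24.4%). The share of rises was thus close to that of all pairs, and the share of falls was below it. The median change of the ratio was 0.93 on the log2 scale for the antisense members and 0.33 for all pairs. All pairs also hold coding loci that face coding loci. Such a pair can enter in both orders, and a rise in one order is a fall in the other. The shares and median of all pairs are therefore not a like background for antisense loci. Fitted only with pairs whose first locus was not coding, 130 ratios of members were higher and 33 lower.

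Fold changes of the 2 strands were almost unrelated across loci. Over the 360 pairs, which share their libraries, Pearson's r was 0.083 and Spearman's rho 0.057, and over the 130 pairs with a mean of at least 20 on both strands they were 0.133 and 0.109. Antisense and sense were both higher in chromatin in 43 pairs, the antisense RNA was higher and the coding gene lower in 47, and both were lower in 4. The opposite order, antisense lower with the coding gene higher, occurred in 2. No background over all pairs was counted for these joint calls, and they were not tested. These counts hold for the size factors: under ERCC scaling both strands were higher in 81 pairs, antisense higher with coding lower in 10 and both lower in 0. By size factors, where the coding gene was lower in chromatin (104 pairs), 73 ratios rose and 0 fell; where it was higher (117 pairs), 20 rose and 27 fell. The ratio contains the coding count, so this last split is a description.

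**Figure D4:**
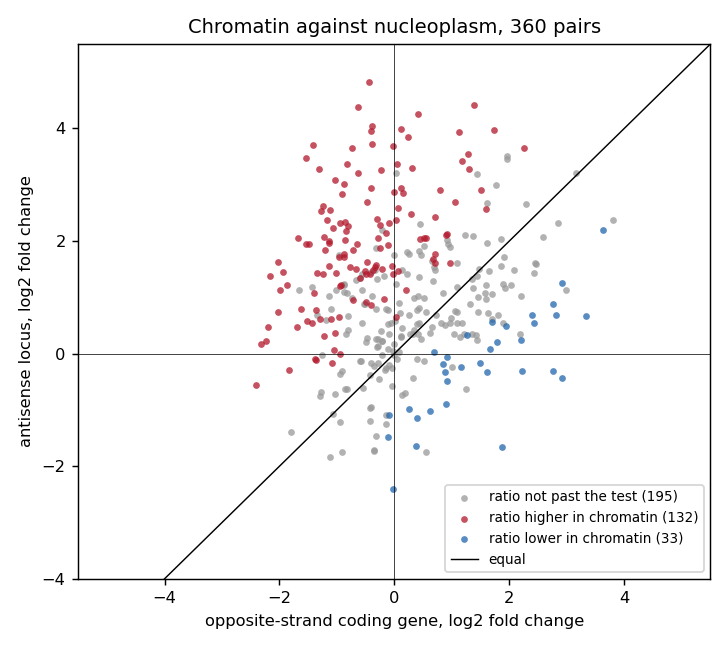
Log2 fold change, chromatin over nucleoplasm, of the opposite-strand coding gene (x) and of the antisense locus (y) for the 360 pairs, by the size-factor scaling. Red points are the 132 pairs with a higher antisense-to-sense ratio in chromatin, blue points the 33 with a lower one, and the line marks equal fold changes. The cloud shows no slope (Pearson's r 0.083), and 249 points lie above the line.

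Antisense counts were small beside sense counts, with a median of 0.576% of the sense count in chromatin and 0.239% in nucleoplasm. In 198 pairs the antisense count was under 1% of the sense count in both fractions; among them 47 ratios rose and 19 fell, and the median change was 0.56. In the other 162 pairs 85 rose and 14 fell, with a median of 1.40. In the 28 pairs with an antisense count of at least 10% of the sense count in every library, 8 rose and 6 fell, and the median was -0.28. Directional libraries can place a small share of sense reads on the wrong strand, and the part of this in the low antisense counts was not tested.

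Named pairs show how far the strands could part. Gm15612 and Podxl2, Gm40117 and Cttnbp2nl, Gm16252 and Tmem108, and Gm34868 and Mthfd1 had ratio changes of 4.39, 4.44, 4.37 and 5.27 on the log2 scale, with adjusted p-values of 9.34e-05 to 0.00157. The antisense RNA Gm15612 was 23.6% of the sense count in chromatin and 1.02% in nucleoplasm. Tmem51os1 and Tmem51 lie head-to-head and moved in opposite directions by size factors, although the fall of Tmem51 did not pass under ERCC scaling (-0.58, adjusted p = 0.120). Tmem51os1 read 50.8, 46.1 and 30.2 in chromatin and 6.06, 10.8 and 0 in nucleoplasm (log2 fold change 3.28 ± 0.96 (SE), adjusted p = 0.0321), Tmem51 read 778, 871 and 417 in chromatin and 1669, 1961 and 1322 in nucleoplasm (-1.31 ± 0.31 (SE), adjusted p = 0.0142), and the ratio changed by 4.59 ± 0.78 (SE), adjusted p = 0.00311. The call on Tmem51os1 itself was not stable, with adjusted p-values of 0.0160 to 0.131 when 1 library was left out, past the threshold only without nucleoplasm replicate 2 or 3.

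In the pairs with the largest falls of the ratio the coding RNA was higher in chromatin, except for Cops3 (adjusted p = 0.0509). Tlk2 read 22062, 20039.7 and 22917 in chromatin and 6082, 5695 and 6011 in nucleoplasm (1.87 ± 0.09 (SE), adjusted p = 3.14e-05), and its ratio with 1700052K11Rik changed by -3.52 ± 0.26 (SE), adjusted p = 0.000137. Cdc14b, a phosphatase gene, had a log2 fold change of 1.48 ± 0.11 (SE), adjusted p = 0.000109, while 1810034E14Rik inside it read 79.3, 53.4 and 47.9 in chromatin and 76.8, 75.5 and 50.0 in nucleoplasm (log2 fold change -0.17 ± 0.30 (SE), adjusted p = 0.662), a difference that did not pass and changed sign under ERCC scaling (0.55). Their ratio changed by -1.65 ± 0.30 (SE), adjusted p = 0.00413. Dhrs13os, whose largest overlap is with the transcriptional corepressor gene Phf12, read 37.6, 50.3 and 45.8 in chromatin and 101, 86.3 and 65.2 in nucleoplasm (log2 fold change -0.89 ± 0.26 (SE), adjusted p = 0.0304, and 0.0187 to 0.0935 without 1 library, past the threshold only without nucleoplasm replicate 3), and under ERCC scaling it was -0.17 (adjusted p = 0.658). The ratio changed by -1.79 ± 0.26 (SE), adjusted p = 0.00165. For Gm16062 and Cops3 the ratio changed by -2.01 ± 0.21 (SE), adjusted p = 0.000450.

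Of the 5 loci opposite a gene on a list of cardiac contractile, channel and junction genes, 2 were higher in chromatin and 0 lower, beside 26.9% and 20.9% of all genes, and each call was lost in 5 of the 6 fits without 1 library. Mhrt, a cardiac noncoding RNA transcribed against the myosin heavy chain gene Myh7 and overlapping another antisense gene of its own strand, read 29.5, 60.8 and 12.5 in chromatin and 6.06, 9.59 and 4.35 in nucleoplasm (log2 fold change 1.996 ± 0.65 (SE), adjusted p = 0.0462). Chromatin replicate 2 was the highest and replicate 3 the lowest, still above all nucleoplasm libraries, and leaving out 1 library gave adjusted p-values of 0.0226 to 0.152, past the threshold only without chromatin replicate 3.

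Another 3 were at the counting limit. Gm15179, opposite the intermediate filament gene Des, read 5.08, 7.34 and 0 in chromatin and 0, 0 and 2.90 in nucleoplasm (adjusted p = 0.387), 4930573H18Rik, opposite the connexin gene Gja5, read 0, 4.19 and 1.04 in chromatin and 0, 0 and 0 in nucleoplasm (adjusted p = 0.208, and 0.0468 without chromatin replicate 1), and Gm15551, inside the calcium/calmodulin kinase gene Camk2d, read 0, 2.096 and 0 in chromatin and 4.04, 0 and 0 in nucleoplasm (adjusted p = 0.835). Gm15179 passed without both libraries numbered 3 (2.83 ± 0.20 (SE), adjusted p = 0.00616), on counts of at most 7.34. None of the 3 passed in the main fit, and counts this low allow no firm comparison at this depth. Camk2d itself was higher in chromatin, at 31129.5, 28819.8 and 23949 in chromatin and 16377, 14732 and 11114 in nucleoplasm (1.00 ± 0.18 (SE), adjusted p = 0.00471).

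Of the 8 loci opposite a transcription factor gene on a second list, 2 were higher and 1 lower, beside 26.9% and 20.9% of all genes, and the lower one did not pass under ERCC scaling. Gm11266 (chr4:82507658-82551135, plus strand), inside Nfib, read 9103, 8650.1 and 6638 in chromatin and 1673, 1625 and 1236 in nucleoplasm (log2 fold change 2.43 ± 0.17 (SE), adjusted p = 0.000109), which held under every alternative. Nfib moved the same way, at 320490, 294245 and 401588 in chromatin and 90112, 78111 and 95761 in nucleoplasm (1.94 ± 0.18 (SE), adjusted p = 0.000317). Gata5os, head-to-head with the cardiac factor gene Gata5, read 106, 84.9 and 42.7 in chromatin and 28.3, 30.0 and 7.97 in nucleoplasm (log2 fold change 1.87 ± 0.61 (SE), adjusted p = 0.0477). In the 6 fits without 1 library its adjusted p was 0.0691 to 0.183, so it passed in no such fit. It passed with the replicate number as a block (adjusted p = 0.00552) and without both libraries numbered 3 (0.0118). Of its 17 alternatives, 11 did not pass. Both libraries numbered 3 were low for it. Gata5 shared that pattern of libraries, at 2033, 2313 and 1045 in chromatin and 2494, 2721 and 1226 in nucleoplasm, a difference between fractions that did not pass (-0.25 ± 0.42 (SE), adjusted p = 0.638). The ratio within each library changed by 2.13 ± 0.27 (SE), adjusted p = 0.00102.

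Sox6os, inside Sox6, read 14.2, 8.38 and 8.33 in chromatin and 13.1, 13.2 and 11.6 in nucleoplasm (adjusted p = 0.526, with a change of sign to 0.36 under ERCC scaling) while Sox6 read 19107, 17257 and 18003 in chromatin and 4051, 3705 and 3908 in nucleoplasm, and the ratio changed by -2.53 ± 0.29 (SE), adjusted p = 0.000665. Zeb2os, inside Zeb2, read 13.2, 23.1 and 22.9 in chromatin and 30.3, 49.1 and 42.0 in nucleoplasm (log2 fold change -1.02 ± 0.36 (SE), adjusted p = 0.0636), and its ratio with Zeb2 changed by -1.63 ± 0.35 (SE), adjusted p = 0.00853. Zeb2os itself passed with the replicate number as a block, as given at the end. Of its 17 alternatives, 13 did not pass, and it passed in none of the 6 fits without 1 library. 1700113A16Rik, opposite Mef2d, read 10.2, 6.29 and 10.4 in chromatin and 10.1, 9.59 and 8.70 in nucleoplasm and did not pass (adjusted p = 0.848). Tbx3os1 and Pax6os1 were seen in 1 chromatin and in 2 nucleoplasm libraries respectively, at no more than 3.05 counts, which allows no comparison at this depth.

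Starts within 1 kb of the start of the coding gene, as at a shared promoter, were found in 67 loci, of which 27 were higher in chromatin (40.3%) and 1 lower (1.49%). Of the 338 starts further off 121 (35.8%) and 17 (5.03%) were, beside 26.9% and 20.9% of all genes, and the difference between near and far starts was not tested. Vax2os, Zfp335os and Gm46218 were picked from these after their values had been seen, as abundant examples. Vax2os read 224, 247 and 375 in chromatin and 51.5, 59.9 and 62.3 in nucleoplasm (log2 fold change 2.23 ± 0.24 (SE), adjusted p = 0.000521) while Vax2, a homeobox gene, was lower in chromatin by size factors (-1.07 ± 0.19 (SE), adjusted p = 0.00470). Zfp335os read 788, 811 and 1548 in chromatin and 195, 229 and 266 in nucleoplasm (log2 fold change 2.12 ± 0.29 (SE), adjusted p = 0.00151) and Zfp335, a zinc finger gene, was also higher (0.92 ± 0.10 (SE), adjusted p = 0.000516). Gm46218 read 437, 402 and 288 in chromatin and 52.5, 51.5 and 48.6 in nucleoplasm (log2 fold change 2.84 ± 0.20 (SE), adjusted p = 0.000102) and its partner Echdc1 was lower by size factors (-0.91 ± 0.13 (SE), adjusted p = 0.00155). Neither fall of a coding gene passed under ERCC scaling (-0.34 for Vax2 and -0.18 for Echdc1). Of the 52 such starts in the ratio fit, 23 ratios rose and 4 fell, beside 109 and 29 of the 308 starts further off.

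RefSeq promoter windows (GRCm38.p6, 300 bases) were matched by symbol for 315 members, and 276 began within 1000 bp of the assembled start. The letters CG, TATAAA and CCAAT were searched on both strands; CG reads the same on both, and the other 2 can share at most 1 base. At least 10 CG dinucleotides were held by 14 of the 17 windows of loci lower in chromatin (82.4%), by 43 of the 85 windows of loci higher (50.6%) and by 81 of the 174 others (46.6%), beside 43.5% of all 32851 windows. The median number was 22 in the falls and 10 in the rises. Arrangement moved with this count, with medians of 5 for loci inside a coding gene and 17 for head-to-head loci, and its part in the difference was not tested. Level differed between the groups too. All 22 falls had a mean of at least 20 counts, whereas 58 rises lay between 2 and 20 counts and 8 below 2. The part of level was not tested either, and under ERCC scaling only 2 loci were lower. Spearman's rho of the number of CG and the fold change was -0.25 across the 276 windows. TATAAA was found in 10 windows of the rises (11.8%) and 1 of the falls (5.88%), beside 13.6% of all windows, and CCAAT in 32 (37.6%) and 8 (47.1%), beside 37.4%.

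**Figure D5:**
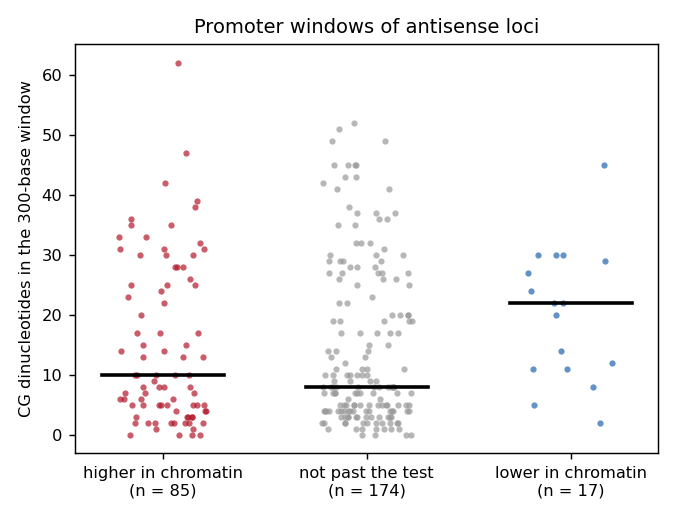
Number of CG dinucleotides in the 300-base RefSeq promoter window (y) of 276 antisense loci, grouped by the call in chromatin against nucleoplasm under the size-factor scaling. Each point is a locus, spread sideways at random, and the black bars are medians: 10 for the 85 loci higher, 8 for the 174 not past the test and 22 for the 17 lower.

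The long reads gave a second view of chromatin, with a limit: they come from cDNA without a strand of origin, so the strand of a long-read transcript is the one the assembly gave it and can be wrong. A long-read transcript of the same strand matched 317 of the 430 loci by the 0.5 overlap rule, and 207 were matched above 0 in both libraries, with median values of 1.89 and 1.55 TPM (abundance scaled to the library total) in replicates 1 and 2. Matched loci had a median of 22.1 short-read counts in chromatin and unmatched loci 5.21. Spearman's rho between short-read counts per kb of exon and long-read TPM was 0.341 (a description over loci). A matching long-read transcript on the opposite strand was found for 33 loci. The authors describe StringTie assembly guided by the reference annotation for both read types. Where both followed one guide, a match of span and strand is not independent, and the part of this was not tested. Tug1 read 17.6 and 18.8 TPM, Gm26944 17.7 and 25.3, and Rab26os 19.8 and 26.2. Gm15564, by contrast, was at 0 in replicate 1 and at 21.2 in replicate 2.

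At the overlap threshold, the members just inside were Gm29773 (0.5003 of the joint span, seen at 4.07 counts in chromatin replicate 1 only) and 1700018L02Rik (0.5018, at 16.3, 16.8 and 7.29 in chromatin and 8.08, 16.8 and 8.70 in nucleoplasm). Just outside were Gm14206 (0.4987, at 3.14 and 2.40 counts in 1 library of each fraction) and AC148021.1 (0.4984). The latter read 3396, 3309 and 3058 in chromatin and 193, 170.2 and 165 in nucleoplasm. Requiring an overlap of 0.8 left 312 loci with 109 higher, 17 lower and a median of 0.96.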

How the data were processed

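Short-read values are normalized counts: the authors aligned stranded 50 bp reads to mm10 with HISAT2 2.1.0, assembled them with StringTie, and deposited gene counts divided by DESeq2 size factors as a signal unscaled for length. Long-read values are TPM that the authors deposited from StringTie after minimap2 alignment. Titles, not the RNA fraction label, gave the nucleoplasm group. 100% of short-read values were whole multiples of a library's smallest step (within 0.001 read), which gave recovered reads.

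Fractions were compared with limma 3.58.1 (R 4.3.3; mean-variance trend; Benjamini-Hochberg) on log2(normalized count + 1) over all genes above 0, a scale that understates changes of scarce RNAs; edgeR 4.0.16 and DESeq2 1.42.0 on recovered reads were alternatives (edgeR called 7735 genes higher and 7657 lower; of the antisense loci 118 and 21). The ratio test used log2((antisense + 1)/(sense + 1)). Alternatives (scaling, pseudocount, filters, overlap, left-out libraries, replicate block) are given at the end. Fits were tested on simulated counts. The coding gene is the opposite-strand gene with the largest span overlap. Shared sequence came from blastn 2.17.0; other steps used Python 3.11.15, numpy 2.4.6, pandas 2.3.3 and scipy 1.17.1. Precision is limited by 3 libraries per fraction, which come from separate cultures. Intervals cover counting error only.

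The members, gene lists and tests were chosen with earlier results of these data known. Loci named are the 10 largest rises and 5 largest falls (mean of at least 20, adjusted p under 0.05, same direction in the 3 same-numbered pairs), the 5 highest per kb in chromatin, those opposite listed cardiac or regulator genes, the 5 largest rises and falls of the ratio past its test (mean of at least 20 on both strands), and the threshold neighbours. Of these, 2 loci are not reported here.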

Additional observations from a re-analysis of the deposited data

How the results depend on the processing

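Of the 25 named loci past the test, 12 passed under every alternative and 8 lost the call when some single library was left out. Without 1 library, the loci higher numbered 127 to 140, lower 12 to 25 and cheRNA 74 to 82, with a median of 0.83 to 1.17; without chromatin replicate 1 or nucleoplasm replicate 2 the lower count was 12, and without nucleoplasm replicate 1 it was 14. Coding genes higher numbered 100.0 to 117 and lower 89 to 113 (median -0.037 to -0.0025), ratios higher 116 to 137 and lower 21 to 42 (21 without nucleoplasm replicate 2; median 0.82 to 0.96), and rho was 0.051 to 0.066. ERCC scaling gave 2 lower, 146 cheRNA, a median of 1.36, 26 coding genes lower, a coding median of 0.66, a ratio median of 0.65 and rho 0.040. Quantile normalization gave 77 higher, 52 lower, 40 cheRNA, a median of 0.30, 61 ratios lower, a ratio median of 0.32 and rho 0.080. A pseudocount of 5 gave 45 cheRNA, a median of 0.51, 60 ratios lower, a ratio median of 0.57 and rho 0.033, and one of 0.1 gave 1.49, 1.27 and rho 0.080. edgeR gave a median of 1.47, a coding median of -0.17, 20 ratios lower, a ratio median of 1.44 and rho 0.071, and DESeq2 gave 1.53 and 1.23. Testing only genes with a mean of at least 10 gave a ratio median of 1.11 and rho 0.134. Loci with a mean of at least 20 held 88 higher and 42 cheRNA (median 0.75), a smaller set by construction. Among pairs with antisense at least 10% of sense, 8 ratios rose and 6 fell (median -0.28, rho 0.245). Added after seeing the data: loci of at most 20000 bp held 102 higher and 53 cheRNA (median 0.77), and leaving out replicate 3 of both fractions gave a median of 0.82, a coding median of 0, 52 ratios lower and rho 0.045. Single loci that changed sign, with no call in the main fit, were 1700113A16Rik (0.56 under ERCC scaling, and -0.21 to 0.11 without 1 library), 1810034E14Rik (0.55) and Sox6os (0.36) under ERCC scaling, Tug1 (-0.14 under quantile normalization) and Gm15551 (-0.78 to 0.54 without 1 library, with 0.04 without chromatin replicate 1 or 3). The cause of these shifts was not tested.

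Same-numbered libraries of the fractions deviated together with r of 0.097, 0.088 and 0.222, and each library correlated best with its own number. The study does not say whether a number marks the same culture in both fractions, and the main fit took no pairs. With the replicate number as a block, 153 loci were higher, 28 lower and 84 cheRNA, and 144 ratios were higher and 42 lower. Zeb2os (adjusted p = 0.0258) and Tug1 (0.0471) passed with the block and not in the main fit. Both also passed in some fits with no block, and of 17 alternatives 13 did not pass for Zeb2os and 12 for Tug1. Depth limits the 105 loci with a mean under 2 counts most, of which 8 passed the test.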
